A study of Mus musculus with 12 samples.

Results

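The major urinary protein (Mup) family was followed through fat cells and stromo-vascular cells of 2 fat depots of the mouse. Its members were taken as every probe set that the platform annotation assigns to a Mup gene. This gave 3 of the 12422 non-control probe sets of the array, for 2 of the 8251 genes that probe sets name singly: 101909_f_at and 101910_f_at, both listed as Mup3, and 101635_f_at, listed as Mup5. No probe set listed several Mup symbols. The family was chosen by measured values, the wide difference of its signals between the fat cells of the depots. That difference, and any other comparison of Mup levels on those adipocyte arrays, is therefore given below as a description with no test. All mice were male C57BL/6, an inbred laboratory strain, aged 42 to 49 days, with no genetic change or treatment named. The 4 groups, of 3 arrays each, were subcutaneous adipocytes, from the flank, intraabdominal adipocytes, from epididymal fat, and the stromo-vascular cells of each of these depots in turn. Adipocytes are the cells that float after collagenase digestion, whereas the pelleted stromo-vascular cells, among them preadipocytes, fibroblasts, immune cells and cells of vessels, were plated and gave RNA after 16 h of culture. Tissue of 10 mice was pooled by depot, and whether the 3 arrays of a group stand for separate pools is not given in the labels, so p-values measure only the spread between these samples, which may be technical.

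Major urinary proteins are small secreted lipocalins, barrel-shaped carriers that hold volatile pheromones and other hydrophobic ligands and release them slowly from urine. In mice they are made mainly in liver, where androgen, thyroid hormone and the pulsed growth hormone of males raise their output, and also in salivary, lacrimal and other exocrine glands. The family arose by recent duplication in rodents and forms a cluster of near-identical genes on mouse chromosome 4, so that its transcripts are hard to tell apart by hybridisation. The RefSeq annotation of GRCm38.p6 lists 22 protein-coding Mup genes there, with 1 of them lying between Mup5 and Mup3. The suffix _f of all 3 probe set names marks a design whose probes match several members of a sequence family. A signal listed under Mup3 or Mup5 may therefore hold RNA of other Mup genes.

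The likeness of the family is visible in the sequence before the genes. RefSeq promoter windows of GRCm38.p6 were at hand for 14 Mup genes, and only the 250 bases before each annotated start were used. Mup3 is shown because it is the measured member with an entry. Beside it stand the Mup windows with the highest and lowest share of identical bases among those aligned to it. All 3 lie on the minus strand, Mup3 at chr4:62087318-62087567, Mup21 at chr4:62150842-62151091 and Mup14 at chr4:61303999-61304248. Each is written 5′ to 3′ in its gene's direction, with capitals marking matches to a TATA box or to a steroid receptor half-site.
Mup3: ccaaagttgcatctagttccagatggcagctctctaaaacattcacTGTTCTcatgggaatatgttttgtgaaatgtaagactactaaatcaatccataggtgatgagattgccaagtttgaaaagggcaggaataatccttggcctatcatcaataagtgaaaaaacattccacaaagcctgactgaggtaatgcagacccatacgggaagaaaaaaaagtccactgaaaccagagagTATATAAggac
Mup21: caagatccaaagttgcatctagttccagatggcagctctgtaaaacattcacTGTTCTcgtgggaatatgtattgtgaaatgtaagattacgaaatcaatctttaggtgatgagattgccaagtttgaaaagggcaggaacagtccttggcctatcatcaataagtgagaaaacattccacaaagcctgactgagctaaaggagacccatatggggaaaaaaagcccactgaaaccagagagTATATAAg
Mup14: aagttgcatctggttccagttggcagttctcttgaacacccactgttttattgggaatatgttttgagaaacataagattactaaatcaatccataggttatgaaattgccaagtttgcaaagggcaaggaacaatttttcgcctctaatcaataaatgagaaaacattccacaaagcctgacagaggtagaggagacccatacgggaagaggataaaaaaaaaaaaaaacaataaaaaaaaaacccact
In a pairwise alignment with free ends, Mup21 had 228 of 244 aligned bases identical to Mup3 (93.4%), and Mup14 had 201 of 244 (82.4%). The median of this share over the 13 other windows was 87.6%. Gaps and unaligned ends do not count in it, and the aligned length ran from 169 to 244 bases. Mup7, with the shortest, had 143 identical bases, fewer than Mup14, so the share is not a ranking of whole windows. A TATA box, searched on both strands as TATAAAA or the variants TATAAAT and then TATATAA and then TATATAT, was found in 11 of the 14 Mup windows, against 11.5% of all 32851 promoter windows of the same length. In Mup3 it began 11 bases before the annotated start. The half-site AGAACA, bound by androgen and glucocorticoid receptors and searched on both strands, was found (on the other strand in the windows shown, so that the capitals give its reverse complement) in 2 of the 14 Mup windows, Mup3 and Mup21, against 16.1% of all windows. The STAT motif TTCNNNGAA (7.0% of all windows) and the C/EBP motif TTGCNNAA (9.6%) had no match in the 14 Mup windows. These matches describe letters in a short window only, and none of these promoters was assayed here.

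All values below are signal intensities on a linear scale, and the trimmed means of the arrays were almost equal as deposited. The median of all values was 496.2, and the 10th percentile, 40.09, served as the pseudocount. The 3 Mup probe sets all passed the filter that left out the dimmest 30% of probe sets by mean log2 signal, but they did so with the help of the subcutaneous adipocyte arrays, where they are bright. Adipocyte markers were far brighter in the fractions labelled as adipocytes. The summed signal of 16 adipocyte markers was 817326 to 954209 on the subcutaneous and 906022 to 1088630 on the intraabdominal adipocyte arrays, against 32242.8 to 38023.6 and 23779.2 to 26778.6 on the stromo-vascular arrays of the same depots. The ratio of 3' to 5' signal of the actin control, which rises as RNA breaks down, was 2.35 to 3.10 on subcutaneous and 1.71 to 2.24 on intraabdominal adipocyte arrays, and 1.20 to 1.24 and 1.11 to 1.21 on the stromo-vascular arrays. It thus moved with depot and with fraction.

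The first question was how much Mup RNA the fat cells of each depot held. Subcutaneous adipocytes were bright for all 3 probe sets and intraabdominal adipocytes were dim. The Mup3 probe set 101909_f_at read 16175, 17422 and 23379 on the 3 subcutaneous adipocyte arrays, against 343.6, 367.3 and 482.1 on the 3 intraabdominal adipocyte arrays. The lowest subcutaneous array stood 33.5 times above the highest intraabdominal one. The group means were 18992 ± 3850 in subcutaneous and 397.7 ± 74.1 in intraabdominal adipocytes (SD, n = 3 each), a log2 difference of 5.44 ± 0.33 (SE) and a fold of 43.3 after adding the pseudocount to each signal, which understates the change of dim genes.

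The second Mup3 probe set had the larger difference and the larger scatter. Probe set 101910_f_at read 8569, 10649 and 15688 in subcutaneous adipocytes, against 76.5, 80.0 and 392.8 in intraabdominal adipocytes. One intraabdominal array, replicate 3, was thus clearly above its 2 companions, and the groups still did not overlap. The log2 difference was 5.95 ± 0.44 (SE, n = 3 each), a fold of 62.0, and it was 6.58 without that array. The Mup5 probe set 101635_f_at read 10460, 10290 and 12863 in subcutaneous adipocytes, against 309.8, 458.3 and 391.4 in intraabdominal adipocytes. Its scatter was the lowest of the 3 in subcutaneous adipocytes, with a coefficient of variation of 12.8%, against 20.3% and 31.5% for the Mup3 probe sets. Its log2 difference was 4.73 ± 0.35 (SE), a fold of 26.5.

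Subcutaneous adipocyte replicate 3 gave the highest value of all 12 arrays in each of the 3 probe sets, and it was also the subcutaneous adipocyte array with the lowest actin ratio, 2.35. With the actin ratio as a covariate in the fit the differences were 5.86 ± 0.54 (101909_f_at), 5.96 (101910_f_at) and 4.47 ± 0.58 (101635_f_at). In 3 of 3 Mup probe sets the subcutaneous adipocyte arrays lay above the intraabdominal ones with no overlap, as did 13.6% of the 8695 probe sets tested. Nothing is read from that count, since this difference chose the family. In bulk samples such as these, fewer cells of a type and less RNA per cell cannot be told apart.

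**Figure D1:**
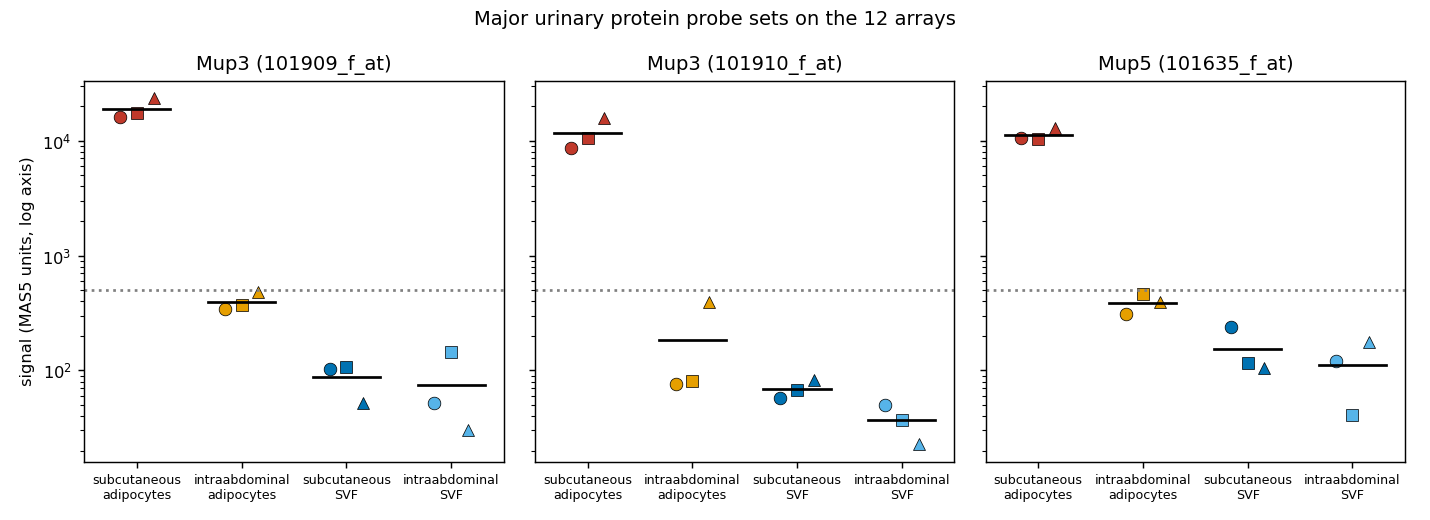
Signal of the 3 Mup probe sets on each of the 12 arrays (vertical log axis, MAS5 units), by group, with circles, squares and triangles for replicates 1, 2 and 3, black bars for the group means and a dotted line at the median of all values (496.2). The subcutaneous adipocyte arrays sit at 8569 or above in every panel, and every other array sits at 482.1 or below. SVF stands for stromo-vascular cells.

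The place of the probe sets within each array is given as a rough guide to brightness only, since probe sets differ in how well they hybridise. On the subcutaneous adipocyte arrays the Mup probe sets were brighter than 95.0% to 98.1% of all non-control probe sets, and the highest of them, 101909_f_at on replicate 3, ranked 230. On the intraabdominal adipocyte arrays they were brighter than 20.5% to 51.4%. On the stromo-vascular arrays they were brighter than 11.6% to 36.3% in the subcutaneous and 4.97% to 30.7% in the intraabdominal depot, near the dim end of the array. No detection calls were used here, so whether such dim signals differ from background cannot be stated. Ranked by the log2 difference between the adipocytes of the depots, the 3 probe sets took places 3 (101910_f_at), 5 (101909_f_at) and 7 (101635_f_at) of 8695.

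The next comparison asked whether plated stromo-vascular cells of the 2 depots also differ in Mup signal. It uses the 6 arrays that the choice of the family did not use, and it is the 1 comparison of the family given here with a test. No Mup probe set was called in it. Probe set 101909_f_at (Mup3) read 103.5, 106.8 and 52.4 in subcutaneous stromo-vascular cells, against 52.3, 143.3 and 30.4 in intraabdominal ones, and the groups overlapped (log2 difference 0.24 ± 0.33 SE, adjusted p = 0.740 with limma and Benjamini-Hochberg adjustment). Probe set 101635_f_at (Mup5) read 240.8, 116.7 and 104.1 in the subcutaneous cells, against 119.8, 40.5 and 175.1 in the intraabdominal cells, again with overlap (0.40 ± 0.35, limma adjusted p = 0.542). Probe set 101910_f_at (Mup3) read 57.5, 66.8 and 81.7 in the subcutaneous cells, against 50.3, 37.2 and 22.7 in the intraabdominal cells. Here the arrays did not overlap, but the difference of 0.51 ± 0.44 was not called (limma adjusted p = 0.538). That error pools the spread of all 4 groups. The probe set's log2 SD was 0.16 (subcutaneous) and 0.26 (intraabdominal) on stromo-vascular arrays, against 0.44 and 1.08 on adipocyte arrays. Without intraabdominal adipocyte replicate 3 the difference was 0.51 ± 0.30, and with only the 6 stromo-vascular arrays it was 0.51 ± 0.39. It was not called in either fit (limma adjusted p = 0.328 and 0.412).

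By limma 0 of 3 Mup probe sets passed the adjusted threshold of 0.05 and 0 of 3 had an unadjusted p under 0.05, against 12.9% of the 8695 probe sets called in this comparison. The subcutaneous arrays lay above the intraabdominal ones without overlap in 1 of 3, against 20.5% of probe sets. Neither share is a like background. The Mup probe sets passed the filter with the help of the subcutaneous adipocyte arrays. On stromo-vascular arrays their group means were only 36.7 to 153.8, against a median of all values of 496.2. Nothing is therefore read from these counts. The 95% intervals of the fold, subcutaneous over intraabdominal, were 0.717 to 1.93 for 101909_f_at, 0.785 to 2.21 for 101635_f_at and 0.738 to 2.75 for 101910_f_at. The pseudocount compresses folds at signals as dim as these, so the intervals hold for the signal plus the pseudocount only. Of the 3 small differences 2 turned sign when 1 array was left out. Probe set 101635_f_at was at -0.0026 without intraabdominal stromo-vascular replicate 2, and 101909_f_at at -0.059 without intraabdominal stromo-vascular replicate 3.

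**Figure D2:**
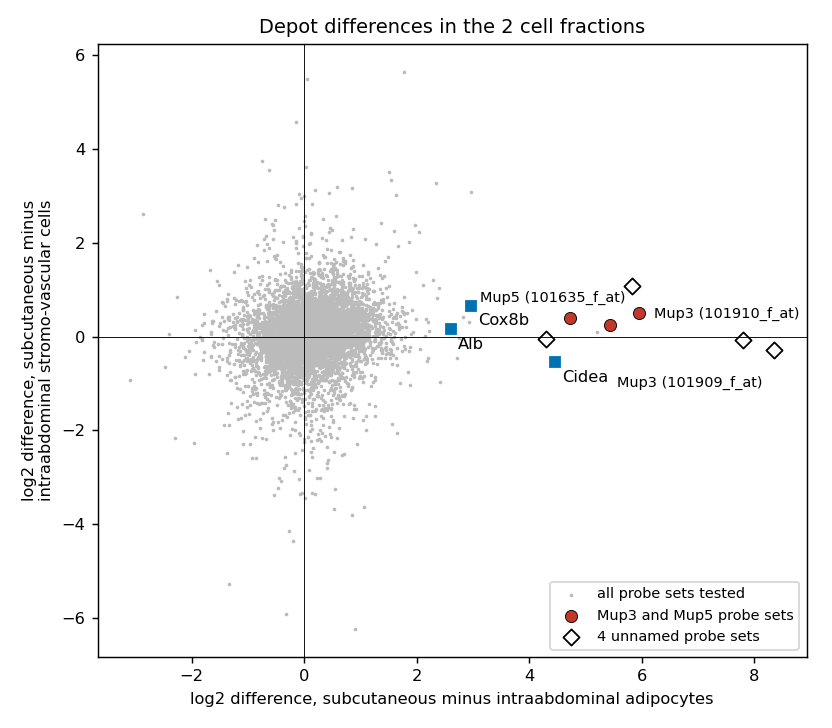
Log2 difference between subcutaneous and intraabdominal adipocytes (horizontal) against the same difference in stromo-vascular cells (vertical) for 8695 probe sets. The Mup3 and Mup5 probe sets lie at 4.73 to 5.95 on the horizontal axis and at 0.24 to 0.51 on the vertical axis. White diamonds are 4 probe sets with no gene symbol in the annotation used, and blue squares are Cidea, Cox8b and Alb.

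Adipocytes were set against the stromo-vascular cells of their own depot as a description. In subcutaneous fat the lowest adipocyte array stood 151, 105 and 42.7 times above the highest stromo-vascular array for 101909_f_at, 101910_f_at and 101635_f_at. The corresponding log2 differences were 7.23 ± 0.33, 6.71 ± 0.44 and 5.92 ± 0.35 (SE, n = 3 each). In intraabdominal fat the adipocyte arrays were also above the stromo-vascular arrays with no overlap, though by little. The log2 differences there were 2.03 ± 0.33 for 101909_f_at, 1.26 ± 0.44 for 101910_f_at and 1.59 ± 0.35 for 101635_f_at, which are folds of 4.09, 2.40 and 3.01. Without intraabdominal adipocyte replicate 3 the difference of 101910_f_at was 0.64. In both depots 3 of 3 Mup probe sets were separated in this direction, against 27.6% of probe sets in subcutaneous and 26.2% in intraabdominal fat. Nothing is read from these counts either, since they use the adipocyte arrays whose difference chose the family.

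The order of levels was therefore subcutaneous adipocytes first, intraabdominal adipocytes second and the 2 stromo-vascular groups last. Neighbours in that order overlapped for 101910_f_at, whose intraabdominal adipocyte and subcutaneous stromo-vascular arrays shared a range. For 101909_f_at and 101635_f_at the intraabdominal adipocyte arrays all lay above the subcutaneous stromo-vascular ones. Between the 2 stromo-vascular groups no difference passed the limma test given above.

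The 3 probe sets followed each other across the 12 arrays with Pearson's r of 0.970 to 0.978 on the log2 scale, a likeness carried by the 3 bright arrays. Over the other 9 arrays r was 0.537 to 0.691. Since probes of these sets match several family members, the 3 series are not independent measurements. The genes whose pattern was most like the mean of the 3 Mup probe sets were sought among named genes, with the brightest probe set standing for each. The first 4 of the 10 nearest were genes known from brown fat: Cox8b and Cox7a1, subunits of cytochrome c oxidase typical of brown fat and muscle, Cidea, a lipid droplet protein, and Ucp1, the uncoupling protein of heat production. Their r over 12 arrays was 0.983 (Cox8b), 0.969 (Cidea), 0.964 (Ucp1) and 0.954 (Cox7a1).

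The fifth was Alb, the gene of serum albumin, with r = 0.949. It read 1424, 1552 and 1723 (lowest to highest) in subcutaneous adipocytes, against 107.5, 204.0 and 466.2 in intraabdominal adipocytes, 98.7, 151.5 and 228.7 in subcutaneous stromo-vascular cells and 74.9, 166.4 and 176.8 in intraabdominal ones. Like the Mup probe sets it was high on the 3 subcutaneous adipocyte arrays alone. The remaining 5 were Trav9d-3, Igtp, Ccdc12, Cox7b and Spink4, with r of 0.935 to 0.943 and folds between the adipocyte groups of only 1.44 to 2.42. Over the 9 arrays other than subcutaneous adipocytes, r was 0.441 for Ucp1, 0.532 for Alb and 0.928 for Cox8b, so the likeness in the dim range varied widely. These r values share the arrays and their scaling and are given as descriptions with no test.

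**Figure D3:**
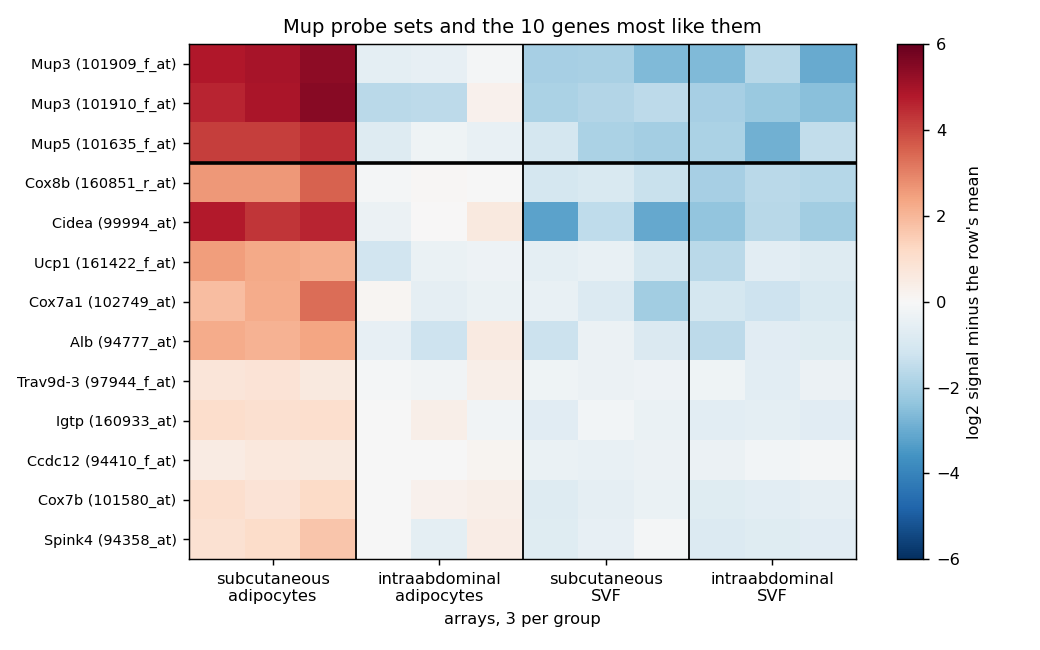
Log2 signal of the 3 Mup probe sets (above the thick line) and of the 10 genes most like them (below it) on the 12 arrays, each row centred on its own mean. Red is above and blue below the row's mean. The 3 subcutaneous adipocyte columns are red in every row, and the Mup and Cidea rows have the deepest colour. SVF stands for stromo-vascular cells.

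Liver is the main known source of major urinary proteins, so a list of hepatocyte genes was set beside them. In subcutaneous against intraabdominal adipocytes 2 of 10 tested genes (22 on the array) rose and 1 fell, with a median log2 difference of 0.09 against 0.05 over all 6436 genes, of which 3.67% rose and 4.63% fell. Alb was 6.08-fold higher (limma adjusted p = 0.00212) and Cps1, the first enzyme of the urea cycle, 2.15-fold higher (668.2 in subcutaneous against 291.6 in intraabdominal adipocytes, limma adjusted p = 0.0148). Alb was picked above among the genes most like the Mup probe sets, so its p-value and its count are not a separate observation. It averaged 259.2 in intraabdominal adipocytes and 139.4 to 159.7 in stromo-vascular cells. The filter may thus have kept it through the subcutaneous adipocyte arrays. Cyp2e1, an ethanol-oxidising cytochrome that was also bright in both adipocyte groups, fell (89628 in subcutaneous against 156055 in intraabdominal adipocytes, limma adjusted p = 0.00389). Plasma protein genes of the hepatocyte were not all alike. A probe set of Afp, the gene of alpha-fetoprotein, was 1.32 higher in subcutaneous than in intraabdominal adipocytes on the log2 scale. No test result for it is given here. Several others read nearly the same in both adipocyte groups and did not pass the test. Ttr, the thyroid hormone carrier, read 346.4 in subcutaneous against 306.9 in intraabdominal adipocytes, Apoa2, a lipoprotein component, 231.5 in subcutaneous against 227.0 in intraabdominal adipocytes, and Hpx, the haem carrier, 306.0 in subcutaneous against 279.8 in intraabdominal adipocytes (limma adjusted p = 0.909, 0.912 and 0.944). The summed signal of the 22 hepatocyte genes was 110962 to 134098 in subcutaneous and 163087 to 188446 in intraabdominal adipocytes, and 4948 to 5119 and 3519 to 4268 in the stromo-vascular cells of the same depots. Cyp2e1 made up most of the sum in both adipocyte groups and set its direction. Without it, the sum of the other 21 genes ran the other way, at 27817 to 37411 in subcutaneous against 13226 to 21191 in intraabdominal adipocytes, with no overlap. Much of that remainder was Pck1, an enzyme of glucose and glycerol synthesis that fat cells also use, at 25318 in subcutaneous against 12233 in intraabdominal adipocytes (limma adjusted p = 0.161). On the subcutaneous adipocyte arrays 14 of the 22 were under the median of all values on every array, against 18 on the intraabdominal ones, and none was at 0. The part of hepatocyte RNA in the Mup difference was not tested.

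Markers of glands and epithelia that could carry Mup RNA were also counted, with the same background. None of 4 tested salivary and lacrimal gland genes (14 on the array) was called, with a median log2 difference of 0.38. Of their summed signal, 16701 to 25152 in subcutaneous and 12843 to 16523 in intraabdominal adipocytes, most was that of Amy1, an amylase shared with other tissues, at 17117 in subcutaneous against 13487 in intraabdominal adipocytes (limma adjusted p = 0.626). The other 13 genes summed to 2139 to 3373 in subcutaneous against 1514 to 1864 in intraabdominal adipocytes, without overlap. None of 6 tested mammary epithelial genes (15 on the array) was called, with a median of 0.53 and a summed signal of 3019 to 3699 in subcutaneous against 1721 to 2453 in intraabdominal adipocytes. Among 7 tested genes of skin epithelium and sebaceous gland (15 on the array) 1 rose, Sprr1b, a cornified envelope protein, at 18622 in subcutaneous against 13832 in intraabdominal adipocytes (limma adjusted p = 0.0372), with a summed signal of 22011 to 24670 in subcutaneous against 15366 to 20885 in intraabdominal adipocytes. Most of the skin sum was Sprr1b, and the other 14 genes overlapped, at 4373 to 6292 in subcutaneous against 3456 to 4759 in intraabdominal adipocytes. The mammary sums did not overlap, but most of their genes were dim. Under the median of all values were 13 of the 15 on subcutaneous and 14 on intraabdominal adipocyte arrays. The median signal of whole arrays also ran higher in subcutaneous (476.4 to 558.4) than in intraabdominal adipocytes (422.8 to 483.9). No background share was computed for the overlap of this sum or of the gland and hepatocyte sums. The part of gland, skin and mammary RNA in the Mup difference was not tested. Of the brown fat markers 4 of 5 tested (8 on the array) rose, with a median of 2.93. Their summed signal was 32874 to 50831 in subcutaneous against 3544 to 4379 in intraabdominal adipocytes. Those tested include Cox8b, Cidea, Ucp1 and Cox7a1, picked above as most like the Mup probe sets, so the count is not a separate observation. Ucp1 averaged 1326 in subcutaneous adipocytes and 102.4 to 143.4 in the other groups. The filter may thus have kept such genes through the subcutaneous adipocyte arrays, which would raise the count and median. Among markers of other cells in the depots, 3 of 15 tested preadipocyte and fibroblast genes and 1 of 14 macrophage genes rose, and none of either fell. A single gene fell and none rose among 5 lymphocyte genes and among 10 skeletal muscle genes, 2 of 16 adipocyte genes fell, and none of 4 epididymis and testis genes or 6 mesothelium genes was called.

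Lipocalins outside the Mup family were set beside it, since they share its barrel shape. Of 8 tested genes (14 on the array) none rose and 1 fell in subcutaneous against intraabdominal adipocytes, with a median log2 difference of 0.14. The one that fell was Lcn2, an iron-siderophore carrier of the acute phase, at 240.5 in subcutaneous against 847.3 in intraabdominal adipocytes (limma adjusted p = 0.00193). Rbp4, the plasma carrier of retinol, read 37047 in subcutaneous against 41093 in intraabdominal adipocytes, and Orm1, the acid glycoprotein orosomucoid, 14582 in subcutaneous against 14311 in intraabdominal adipocytes (limma adjusted p = 0.464 and 0.997). Apom, a sphingolipid carrier on lipoproteins, read 484.0 in subcutaneous against 174.4 in intraabdominal adipocytes, with a limma adjusted p of 0.133. In stromo-vascular cells Rbp4 rose 3.98-fold and Lcn2 2.69-fold in the subcutaneous against the intraabdominal depot, a comparison in which no Mup probe set passed the test. Of the 4 tested fatty acid and retinoid binding proteins, carriers inside the cell, none was called between the adipocyte groups, and Fabp4, the adipocyte form, read 4893 in subcutaneous against 4821 in intraabdominal adipocytes.

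**Figure D4:**
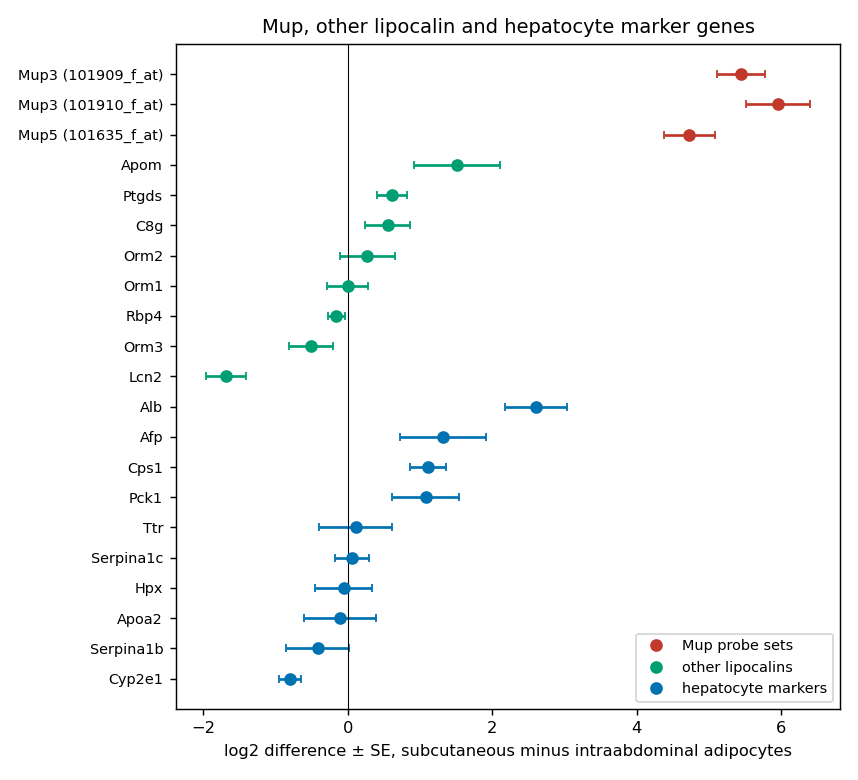
Log2 difference between subcutaneous and intraabdominal adipocytes (horizontal axis, points with bars of 1 SE) for the 3 Mup probe sets, the 8 tested lipocalins outside the family and the 10 tested hepatocyte markers. The Mup probe sets lie at 4.73 to 5.95, the other lipocalins at -1.68 to 1.51 and the hepatocyte markers at -0.80 to 2.61.

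Growth hormone acts on liver Mup genes through its receptor Ghr, the kinase Jak2 and the transcription factor Stat5b, and the list of this pathway with the hormone receptors had 18 tested genes (19 on the array). In subcutaneous against intraabdominal adipocytes 2 rose and none fell, with a median log2 difference of 0.24. Socs3, a feedback inhibitor of cytokine signalling, read 17509 in subcutaneous against 3606 in intraabdominal adipocytes (4.86-fold, limma adjusted p = 4.57e-07), and Socs2, the feedback inhibitor most tied to growth hormone, 1919 in subcutaneous against 1218 in intraabdominal adipocytes (1.56-fold, limma adjusted p = 0.0402). Ghr itself read 19790 in subcutaneous against 26654 in intraabdominal adipocytes (limma adjusted p = 0.0594). Jak2, Stat5b and the glucocorticoid receptor Nr3c1 differed by -0.02 to 0.17 on the log2 scale, with limma adjusted p-values of 0.842 to 0.976. In stromo-vascular cells 7 of the 18 rose and 2 fell in the subcutaneous depot, where 6.91% of all genes rose and 6.96% fell. Genes that are higher in male than in female mouse liver, which share hormonal control with Mup genes there, gave no call among 6 tested in adipocytes (9 on the array). The nearest were Cyp2f2 at 2568 in subcutaneous against 1345 in intraabdominal adipocytes and Cyp4a12b at 784.4 in subcutaneous against 293.1 in intraabdominal adipocytes (limma adjusted p = 0.0504 and 0.0641). In stromo-vascular cells 3 of the same 6 genes rose in the subcutaneous depot (Cyp7b1, Cyp2f2 and Gstp1) and none fell, with a median log2 difference of 0.72.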

How the data were processed

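RNA of 12 samples was hybridised to 1-colour Affymetrix arrays with 12488 probe sets. Per the submitters' processing notes, the authors used MAS5, and each deposited number is an intensity on a linear scale. Its version is not given in the sources. Trimmed means (2%) differed between arrays by at most 1.00017-fold, so no further scaling was applied. The 66 control probe sets were left out. Genes were named from the platform annotation, which can be old.

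Log2 of the signal plus 40.09 (the 10th percentile of all values) was fitted with limma 3.58.1 in R 4.3.3, with 4 group means on all 12 arrays and eBayes with an intensity trend (8 residual degrees of freedom, 6.17 from the prior). The dimmest 30% of probe sets were left out, 8695 were tested, and p-values were adjusted by Benjamini-Hochberg over all of them. A call is an adjusted p under 0.05. For lists, the brightest probe set stood for a gene (6436 genes). The steps were tested on simulated data. The number of arrays limits the precision.

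The family and the gene lists were chosen with earlier results of these data known. Named were all Mup probe sets, the 10 genes most like them by Pearson's r and part of the leading list members. The text gives all lists that bear on liver, glands, skin, lipocalins and growth hormone. Same-numbered arrays did not vary together in the way of pairs (correlation of deviations from group means -0.09 to 0.11, over 0.1 in 1 of 18 pairs), so no block was used. Promoter windows were aligned with Biopython 1.88 in Python 3.11.15.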

Additional observations from a re-analysis of the deposited data

How the results depend on the processing

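Each Mup log2 difference was recomputed under 20 alternatives: 12 fits without 1 array each, and 8 with another pseudocount, scaling, filter, sample set, block or covariate. Between adipocytes of the depots, and between adipocytes and stromo-vascular cells, all 9 differences stayed positive in all of them. Subcutaneous minus intraabdominal adipocytes gave 4.28, 4.99 and 5.00 with a pseudocount of 200 (101635_f_at, 101909_f_at, 101910_f_at) and 4.47 and 5.86 with the actin covariate (the first and second of these). Adipocytes minus stromo-vascular cells in subcutaneous fat gave 5.02, 6.05 and 5.42 with a pseudocount of 200, 7.79 and 7.35 with a pseudocount of 1 (101909_f_at and 101910_f_at), and 5.27 and 8.29 with the covariate (101635_f_at and 101909_f_at). In intraabdominal fat they gave 0.93, 1.13 and 0.60 with a pseudocount of 200 (101635_f_at, 101909_f_at, 101910_f_at), and 1.996, 2.66 and 1.91 with a pseudocount of 1. With the covariate they were 1.17 ± 0.84, 2.72 and 1.27 ± 1.075 (SE), the first and last little larger than their errors. A larger pseudocount shrinks the log2 difference of dim signals by construction; the cause of the shifts with the covariate was not tested.

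In stromo-vascular cells no Mup probe set was called under any of the 20 alternatives (adjusted p of 0.244 to 0.997 over the 3 probe sets). Leaving out 1 array gave -0.0026 to 0.71 for 101635_f_at, -0.059 to 0.63 for 101909_f_at and 0.37 to 0.64 for 101910_f_at. With the replicate number as a block the 3 differences were again 0.40, 0.24 and 0.51, and the block changed no call of a Mup probe set (adjusted p = 0.557, 0.747 and 0.517). The block moved the count of all probe sets called to 1054 from 1125 in this comparison and to 595 from 707 between adipocytes. That count of 707 was 299 on the 6 adipocyte arrays alone, 97 with the actin covariate and 365 to 949 without 1 array, the lowest counts being 365 and 372 without intraabdominal adipocyte replicate 2 or 1. With the covariate the counts of adipocytes against stromo-vascular cells were 1058 in subcutaneous and 2173 in intraabdominal fat, against 4594 and 4462 without it. Scaling each array to a common median moved the median difference of all probe sets between adipocytes of the depots from 0.07 to -0.15, and the Mup differences to 4.51 (101635_f_at), 5.22 (101909_f_at) and 5.77 (101910_f_at).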

Other observations

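Probe sets with no gene symbol in the annotation used here were looked at after the values had been seen. Of the 9 largest differences toward subcutaneous adipocytes 3 were the Mup probe sets, 2 were probe sets of Ucp1 and Cidea and 4 were unnamed probe sets, all with the family suffix _f. Probe set 101566_f_at held the first place of all 8695, with 46239, 48821 and 75352 in subcutaneous adipocytes (lowest to highest), against 56.1, 117.1 and 281.1 in intraabdominal adipocytes. It stayed at 26.2 to 47.2 in subcutaneous and 19.6 to 123.6 in intraabdominal stromo-vascular cells. Probe set 161815_f_at was second, with 36967, 44617 and 46334 in subcutaneous adipocytes, against 128.6, 151.4 and 172.9 in intraabdominal ones. The log2 differences were 8.35 and 7.80, each further from 0 than that of any named Mup probe set.

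Probe set 102096_f_at (log2 difference 5.82, place 4) read 7779 to 12434 in subcutaneous adipocytes, against 112.8 to 157.0 in intraabdominal ones. Its stromo-vascular cells differed from those of the first set: the subcutaneous arrays, at 141.1 to 160.6, lay above the intraabdominal ones, at 33.6 to 59.7, and overlapped with the intraabdominal adipocytes. Probe set 101682_f_at (4.29, place 9) read 6516 to 8374 in subcutaneous adipocytes, against 255.4 to 418.9 in intraabdominal ones, and its stromo-vascular arrays overlapped at 166.8 to 428.9 in the subcutaneous and 192.4 to 292.9 in the intraabdominal depot. The Pearson correlation of the 4 with the mean Mup profile was 0.971 to 0.989 over 12 arrays and 0.302 to 0.752 over the 9 arrays without subcutaneous adipocytes, given as a description, since these sets were picked for their likeness. Which genes they stand for is not given in the tables used here.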
